A study of Rattus norvegicus with 6 samples.

Results

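Ras proteins are small GTPases that carry signals from the cell surface to the kinases Raf, MEK and ERK. Guanine nucleotide exchange factors load them with GTP and so switch them on, and GTPase-activating proteins (GAPs) speed the hydrolysis of that GTP and switch them off. In neurons several of these regulators read calcium, calmodulin or the membrane lipid diacylglycerol, and they are known for linking glutamate receptors to ERK signaling at synapses.

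The genes described here are 9 such regulators out of 17066 genes in the expression table. They comprise 7 exchange factors, namely Rasgrp1, Rasgrp2, Rasgrp3 and Rasgrp4 of the RasGRP family, Rasgrf1 and Rasgrf2 of the RasGRF family, and Sos1, and 2 GAPs, Rasa1 and Nf1. They were taken by gene symbol, and Rasgrp2 was selected because its level had been seen to be lower in the CCNY knockdown only. The values of Rasgrp2 are therefore given as a description without a test. The other 8 genes were added by family and role.

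RNA-seq was performed on primary hippocampal neurons of Sprague-Dawley rats taken at embryonic day 18, infected with lentivirus between days 5 and 6 in vitro and harvested on day 14. The virus, built on the FUGW vector, expressed EGFP alone (control), CCNY-WT-EGFP (overexpression of wild-type cyclin Y) or CCNY-shRNA-EGFP (knockdown of cyclin Y by a short hairpin RNA), with 2 libraries for each of these 3 groups. All 3 groups thus carried virus and EGFP, no uninfected neurons were compared, and the knockdown rests on 1 hairpin construct. The labels do not say whether the 2 libraries of a group came from separate cultures, so every p-value below measures the spread between libraries, which may be technical. The targeted gene Ccny had 43.1 and 42.3 FPKM (fragments scaled by transcript length and by library size) in EGFP, against 108 and 109 with CCNY-WT and 5.98 and 6.19 with CCNY-shRNA, in the direction of the labels. Between 9955 and 10002 genes per library reached 1 FPKM. Depth relative to EGFP replicate 1, inferred from the steps between low FPKM values, ranged from 0.818 to 1.33. Markers of excitatory neurons summed to 1481 to 1571 FPKM and those of GABAergic neurons to 1880 to 2289 FPKM, and astrocyte markers summed to 307 to 398 FPKM. The microglial markers Aif1 and Cx3cr1, the endothelial markers Cldn5 and Cdh5 and the oligodendrocyte lineage marker Sox10 were listed at 0 in all 6 libraries. Over their whole lists, the 7 microglial markers summed to 0.546 to 1.28 FPKM, with Cd68 the 1 marker above 1 FPKM in any library, the 7 endothelial and mural markers to 0.912 to 2.11 FPKM, and the 8 oligodendrocyte lineage markers to 37.2 to 47.6 FPKM, of which 5 were tested. Mitotic markers summed to 3.81 to 5.09 FPKM.

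The exchange factors Rasgrp1, Rasgrp2 and Rasgrf1, had lower levels in both CCNY-shRNA libraries than in all 4 other libraries, and the bases just before their annotated starts are shown for that reason. Each stretch holds 250 bases, read 5′ to 3′ on the strand of the gene, from RefSeq promoter windows of the rat build GRCr8, which is a later build than the one used for the FPKM values. Capitals mark exact matches, on either strand, to a GC box (GGGCGG, or CCGCCC in reverse), a CCAAT box (CCAAT, or ATTGG in reverse) or an E-box (CACGTG).

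Rasgrp2, chr1:213136484-213136733, plus strand: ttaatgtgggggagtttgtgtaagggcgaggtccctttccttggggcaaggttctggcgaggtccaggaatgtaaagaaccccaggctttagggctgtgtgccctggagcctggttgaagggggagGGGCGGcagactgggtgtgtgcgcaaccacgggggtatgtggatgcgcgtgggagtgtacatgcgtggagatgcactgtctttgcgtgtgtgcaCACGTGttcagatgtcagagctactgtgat
Rasgrp1, chr3:124684080-124684329, minus strand: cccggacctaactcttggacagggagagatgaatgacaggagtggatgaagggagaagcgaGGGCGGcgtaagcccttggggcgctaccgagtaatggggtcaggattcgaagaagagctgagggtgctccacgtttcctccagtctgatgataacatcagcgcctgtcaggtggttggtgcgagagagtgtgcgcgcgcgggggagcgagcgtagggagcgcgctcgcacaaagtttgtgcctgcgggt
Rasgrf1, chr8:99324736-99324985, plus strand: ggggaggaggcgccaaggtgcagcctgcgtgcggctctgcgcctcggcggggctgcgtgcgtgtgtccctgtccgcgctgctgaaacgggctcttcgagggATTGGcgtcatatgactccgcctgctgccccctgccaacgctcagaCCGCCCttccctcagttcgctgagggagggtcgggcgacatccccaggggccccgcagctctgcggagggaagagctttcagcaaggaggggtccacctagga

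All 3 stretches hold 1 GC box, a match found in 30.5% of the 33465 windows of this length in the RefSeq table. The E-box of Rasgrp2 is a match found in 5.59% of windows and the CCAAT box of Rasgrf1 one found in 34.0%. A TATA box (TATAAA), a CRE (TGACGTCA) and an AP-1 site (TGANTCA), which 12.9%, 1.59% and 6.34% of windows hold, were also searched on both strands and had no match in any of the 9 genes. The Rasgrp2 stretch is 57.6% G and C with 10 CpG dinucleotides, against 60.4% and 20 for Rasgrp1 and 68.8% and 21 for Rasgrf1, where the median window has 51.2% and 5. Among the genes whose libraries overlapped between CCNY-shRNA and EGFP, Sos1 had 84.8% and 46 CpG and Rasgrf2 41.6% and 5. The E-box is also found before Rasgrf2, and GC boxes before Rasgrp4, Sos1 and Rasa1, so neither motif separates the 3 genes from the others. These matches describe letters and not binding.

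In the EGFP libraries the levels of the regulators spanned a wide range. Rasa1, a GAP recruited to phosphorylated receptors through its SH2 domains, had the highest mean level with 44.2 ± 2.57 FPKM (SD, n = 2). It was followed by Rasgrf1, a calmodulin-binding exchange factor, with 43.9 ± 2.57 FPKM, and the libraries of these 2 genes overlapped. Rasgrf2 (20.8 ± 2.0 FPKM), Rasgrp1 (19.4 ± 0.835) and Sos1 (19.3 ± 1.07) came next and overlapped with each other in this order, while from Sos1 downward no neighbours overlapped. Nf1, the GAP neurofibromin, had 16.1 ± 1.23 FPKM and Rasgrp2 15.2 ± 0.107 FPKM, which lay above 46.9% of the 10188 genes tested, whose median was 17.0 FPKM. The remaining members of the RasGRP family were scarcely detected. Rasgrp3 had 0.176 ± 0.0384 FPKM and Rasgrp4 was listed at 0. Levels between genes are compared on the FPKM scale.

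**Figure D1:**
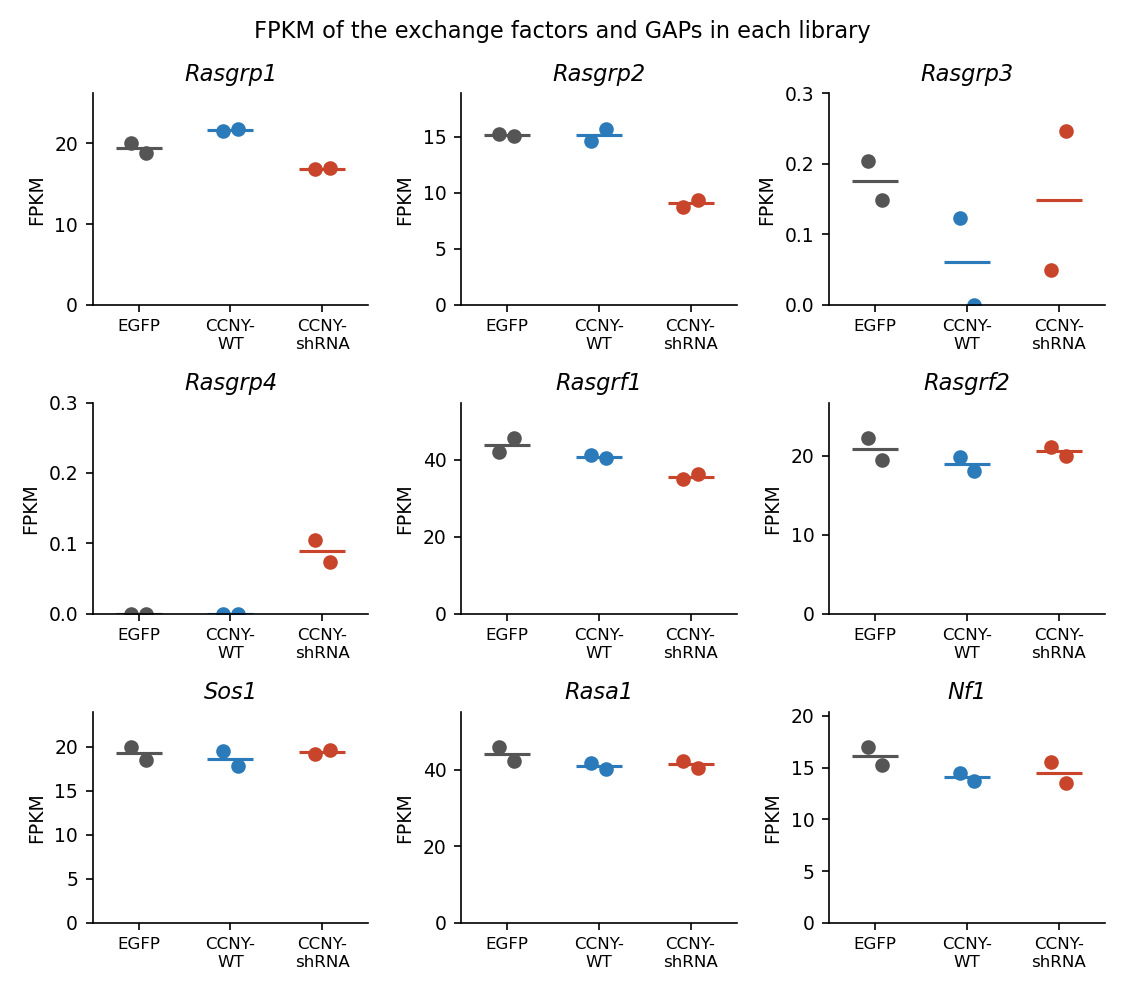
FPKM of each regulator in the 6 libraries (y axis, starting at 0 and scaled per gene), with 2 points per group and a horizontal line at the group mean. Both CCNY-shRNA points of Rasgrp2, at 8.72 and 9.39, lie below the 4 other libraries, which range from 14.7 to 15.7, while Sos1, Rasgrf2 and Rasa1 overlap between CCNY-shRNA and EGFP.

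Rasgrp2 encodes a calcium- and diacylglycerol-regulated exchange factor that acts mainly on the Ras relative Rap1 and is best known from platelets and striatal neurons. Its level was 15.3 and 15.1 FPKM in the EGFP libraries, 14.7 and 15.7 FPKM in the CCNY-WT libraries, and 8.72 and 9.39 FPKM in the CCNY-shRNA libraries. The EGFP and CCNY-WT libraries overlapped, and both CCNY-shRNA libraries lay below them. On the log2 scale, with FPKM values floored to 1, the difference from EGFP was -0.75 (standard error 0.102) in CCNY-shRNA, a ratio of 0.596, and 0.00 (standard error 0.102) in CCNY-WT. The difference between CCNY-shRNA and CCNY-WT was -0.75. Within groups the log2 values of Rasgrp2 had a pooled SD of 0.0603. Of the 10188 genes tested, 62 had a lower log2 difference between CCNY-shRNA and EGFP than Rasgrp2. This rank is a description only, since Rasgrp2 was selected on this contrast.

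The study's fold thresholds involve no test. Past 0.33 on the log2 scale in CCNY-shRNA lay only Rasgrp2, which was selected for its lower level in this contrast. None of the 6 other regulators above the filter passed, where 13.1% of all genes tested did in either direction. Without EGFP replicate 1 or without CCNY-shRNA replicate 2, Rasgrf1 also passed. None of the 7 regulators above the filter passed 0.3 in CCNY-WT, where 8.35% of genes did. In CCNY-shRNA both libraries lay below both EGFP libraries for 3 of the 7, a separation that 24.5% of genes tested showed. Rasgrp2 is 1 of these 3 and was selected on this contrast, which leaves 2 of 6. Against CCNY-WT the same 3 genes were lower in both CCNY-shRNA libraries, where 21.9% of genes tested were. Without the selected Rasgrp2 these are again 2 of 6. In CCNY-WT both libraries lay below both EGFP libraries for Rasgrf1, Rasa1 and Nf1, which are 3 of the 7, against 19.2% of genes tested. For Rasgrp1 both CCNY-WT libraries lay above both EGFP libraries, and the share of genes tested that did so was not counted.

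Levels in bulk RNA cannot tell fewer cells of a type from less RNA per cell, and some markers moved alongside Rasgrp2. The summed level of the 8 GABAergic markers was 2171 and 2289 FPKM in EGFP, against 2190 and 2213 with CCNY-WT and 1880 and 2045 with CCNY-shRNA, so that both CCNY-shRNA libraries were lowest. Of the 7 GABAergic markers tested, all 7 had a negative log2 difference between CCNY-shRNA and EGFP, with a median of -0.09 beside 0.00 over all genes tested. The medians of 3 other lists were lower. They were -0.16 for 7 excitatory markers (4 negative), -0.16 for 6 astrocyte markers (4 negative) and -0.12 for 5 oligodendrocyte lineage markers (4 negative). In these 3 lists 0 markers passed limma's adjusted threshold, where 0.746% of all genes tested did. At an unadjusted limma p under 0.05 there were 3 excitatory markers (1 higher and 2 lower), 2 astrocyte markers and 1 oligodendrocyte lineage marker (all lower). The GABAergic list had 2 (both lower), and 18.6% of all genes tested had such a p. Gad2, an enzyme of GABA synthesis, was the 1 marker of this list past the threshold (-0.41, standard error 0.0494, limma adjusted p = 0.0226), while Gad1 differed by -0.03 (limma adjusted p = 0.813). Leaving out any 1 library ended the call for Gad2, at limma adjusted p-values of 0.0767 to 0.316 and log2 differences of -0.42 to -0.40. The 8 excitatory markers summed to 1518 and 1571 FPKM in EGFP, against 1486 and 1481 with CCNY-WT and 1504 and 1493 with CCNY-shRNA. This sum was thus lowest in CCNY-WT. The 6 astrocyte markers listed summed to 372 and 387 FPKM in EGFP, against 398 and 389 with CCNY-WT and 307 and 377 with CCNY-shRNA, where the groups CCNY-shRNA and EGFP overlapped. Of the 8 oligodendrocyte lineage markers 3 were under 1 FPKM throughout. The 8 summed to 44.5 and 44.2 FPKM in EGFP, against 47.6 and 41.9 with CCNY-WT and 40.3 and 37.2 with CCNY-shRNA. Both CCNY-shRNA libraries were thus lowest. The part of these neuronal and glial markers in the Rasgrp2 values was not tested. For the blood cells that are known to use RasGRP proteins, the platelet marker Pf4, the mast cell markers Cpa3 and Fcer1a and the T cell markers Cd3e, Cd3g, Cd3d and Cd2 were listed at 0 in all 6 libraries. The 6 platelet and mast cell markers in the table summed to 54.5 to 58.8 FPKM, nearly all from Kit, a receptor that neurons also express, with 58.0 and 58.8 FPKM in EGFP and 55.5 and 58.5 in CCNY-shRNA, while Gp9 and Gp1bb stayed under 1 FPKM. The 5 T cell markers summed to 0.696 to 1.65 FPKM, all from Lck.

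Rasgrp1 encodes the diacylglycerol-regulated exchange factor for Ras best known from T cells. Its level was 20.0 and 18.8 FPKM in EGFP, against 21.5 and 21.8 with CCNY-WT and 16.9 in each CCNY-shRNA library. The 3 groups did not overlap, with CCNY-WT highest and CCNY-shRNA lowest. How many of the genes tested show this order was not counted. The log2 difference from EGFP was -0.20 with the knockdown (limma adjusted p = 0.239) and 0.16 with CCNY-WT (limma adjusted p = 0.763), each with a standard error of 0.0814. Neither passed the threshold of 0.05. The direct difference between CCNY-shRNA and CCNY-WT was -0.36 (standard error 0.0814, limma adjusted p = 0.174), which did not pass either and had an unadjusted limma p of 0.00237.

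Rasgrp3 and Rasgrp4, the remaining members of this family, did not reach 1 FPKM in any library and were not tested. Rasgrp3 had 0.204 and 0.149 FPKM in EGFP, against 0.123 and 0 with CCNY-WT and 0.0497 and 0.247 with CCNY-shRNA. Its values correspond to as few as 5 and 4 fragments in EGFP, against 4 and 0 with CCNY-WT and 1 and 7 with CCNY-shRNA, and the groups CCNY-shRNA and EGFP overlapped. Rasgrp4 was listed at 0 in the EGFP and CCNY-WT libraries and at 0.104 and 0.0741 FPKM in the CCNY-shRNA libraries, where the steps allow as few as 1 fragment each. No difference was detectable at this depth, and RefSeq places Rasgrp4 over the gene Fam98c, at 18.7 to 22.8 FPKM, and its part in these single fragments was not tested.

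The family thus consisted almost wholly of Rasgrp1 and Rasgrp2 in these neurons. Rasgrp2 made up 43.0% and 44.3% of the summed RasGRP level in EGFP, against 40.4% and 41.9% with CCNY-WT and 33.9% and 35.3% with CCNY-shRNA. The ratio of Rasgrp2 to Rasgrp1 was 0.763 and 0.802 in EGFP, against 0.683 and 0.722 with CCNY-WT and 0.517 and 0.556 with CCNY-shRNA. This ratio did not overlap between any of the groups and was lowest in CCNY-shRNA. Since Rasgrp2 was selected on its knockdown values, these shares and ratios are descriptions.

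Rasgrf1, which binds calmodulin and couples calcium entry to Ras, had 42.1 and 45.7 FPKM in EGFP, against 41.3 and 40.3 with CCNY-WT and 34.9 and 36.4 with CCNY-shRNA. Both CCNY-shRNA libraries were lowest, and both CCNY-WT libraries lay just below EGFP. The difference of CCNY-shRNA from EGFP was -0.30 on the log2 scale (standard error 0.0682, 95% interval -0.46 to -0.14), with a limma p of 0.0024 before and 0.0855 after adjustment over all genes tested. It thus had the smallest p of the 6 regulators tested but did not pass the threshold. For CCNY-WT the difference was -0.10 (limma adjusted p = 0.813). Its relative Rasgrf2, which shares the calmodulin-binding region, had 22.3 and 19.4 FPKM in EGFP, against 19.8 and 18.1 with CCNY-WT and 21.1 and 19.9 with CCNY-shRNA. The libraries of CCNY-shRNA lay within the range of EGFP, with a log2 difference of -0.02 (95% interval -0.25 to 0.21, limma adjusted p = 0.942).

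Sos1, the exchange factor that the adaptor Grb2 brings to activated receptor tyrosine kinases, had 20.0 and 18.5 FPKM in EGFP, against 19.5 and 17.8 with CCNY-WT and 19.1 and 19.6 with CCNY-shRNA. All groups overlapped. The log2 difference from EGFP was 0.01 in CCNY-shRNA (95% interval -0.20 to 0.22, limma adjusted p = 0.971) and -0.05 in CCNY-WT (95% interval -0.25 to 0.16, limma adjusted p = 0.945). These intervals leave out changes of the size seen for Rasgrp2 in CCNY-shRNA, while changes inside their limits could not be resolved.

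Of the GAPs, Rasa1 had 46.0 and 42.4 FPKM in EGFP, against 41.8 and 40.2 with CCNY-WT and 42.4 and 40.4 with CCNY-shRNA. The CCNY-shRNA libraries reached the lower EGFP library, and the log2 difference was -0.09 (95% interval -0.25 to 0.07, limma adjusted p = 0.509). Nf1 had 17.0 and 15.3 FPKM in EGFP, against 14.5 and 13.7 with CCNY-WT and 15.5 and 13.5 with CCNY-shRNA. Its log2 difference from EGFP was -0.15 in CCNY-shRNA (95% interval -0.41 to 0.10, limma adjusted p = 0.493) and -0.19 in CCNY-WT (95% interval -0.45 to 0.06, limma adjusted p = 0.785). RefSeq places the genes Omg, Evi2a and Evi2b within Nf1. Omg had 37.3 and 39.0 FPKM in EGFP and 33.4 and 33.6 in CCNY-shRNA, and whether its fragments were kept apart from those of Nf1 is not given in the sources used here.

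Together, 0 of the 6 regulators tested passed limma's adjusted p of 0.05 in CCNY-shRNA against EGFP, where 0.746% of all genes tested passed (17 higher and 59 lower). Leaving out any 1 library lowered these 76 calls to between 1 and 7. At an unadjusted p under 0.05 there were 2, Rasgrp1 and Rasgrf1, both lower, beside 1891 of all 10188 genes. Between CCNY-WT and EGFP 0 of the 6 passed, where 0.00982% of genes did, and 0 had an unadjusted p under 0.05, beside 696 of all genes, with adjusted p-values of 0.763 to 0.945. Between CCNY-shRNA and CCNY-WT 0 passed, where 0.216% of genes did, and 2, again Rasgrp1 and Rasgrf1, had an unadjusted p under 0.05, beside 1239 of all genes. The median log2 difference from EGFP over the 6 was -0.12 in CCNY-shRNA and -0.11 in CCNY-WT, beside 0.00 over all genes tested in each. Both comparisons share the EGFP libraries.

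**Figure D2:**
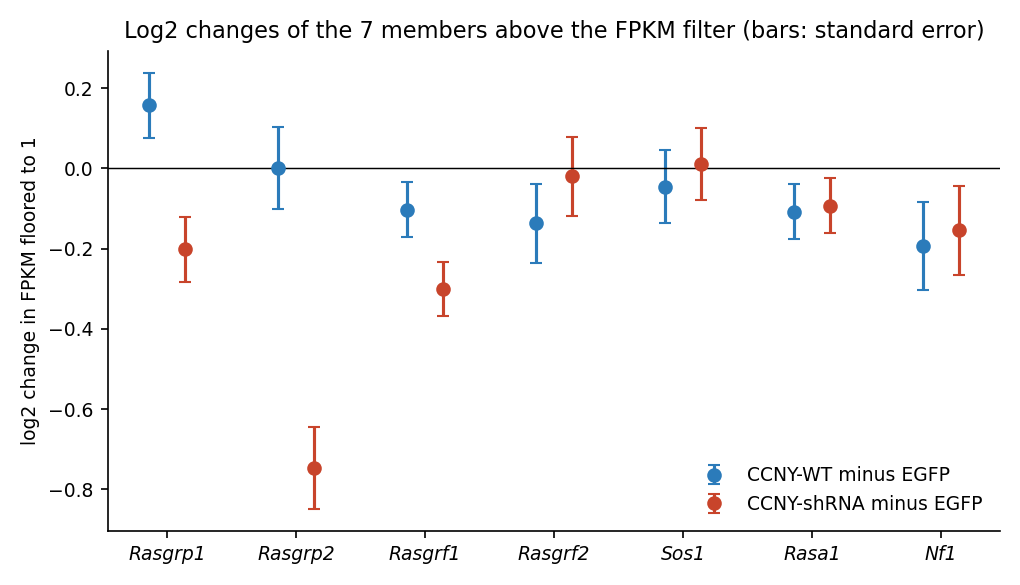
Log2 difference from EGFP of the 7 regulators above the FPKM filter (y axis, FPKM floored to 1), with points for CCNY-WT and CCNY-shRNA and bars of 1 standard error from limma. Rasgrp2 lies at -0.75 in CCNY-shRNA and at 0.00 in CCNY-WT, and the CCNY-shRNA values of the 6 other genes range from -0.30 to 0.01.

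The summed level of the 7 exchange factors was 120 and 118 FPKM in EGFP, against 117 and 114 with CCNY-WT and 101 and 103 with CCNY-shRNA. Without Rasgrp2 the sums were 105 and 103 in EGFP, against 102 and 98.0 with CCNY-WT and 92.2 and 93.1 with CCNY-shRNA, so the CCNY-shRNA libraries were lowest with and without it. The 2 GAPs summed to 63.0 and 57.6 FPKM in EGFP, against 56.3 and 53.9 with CCNY-WT and 57.9 and 53.9 with CCNY-shRNA. The ratio of the exchange factor sum to the GAP sum was 1.90 and 2.04 in EGFP, against 2.08 and 2.11 with CCNY-WT and 1.74 and 1.90 with CCNY-shRNA, with CCNY-shRNA at or below the lower EGFP library. Transcript sums say nothing of the activity of the proteins.

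**Figure D3:**
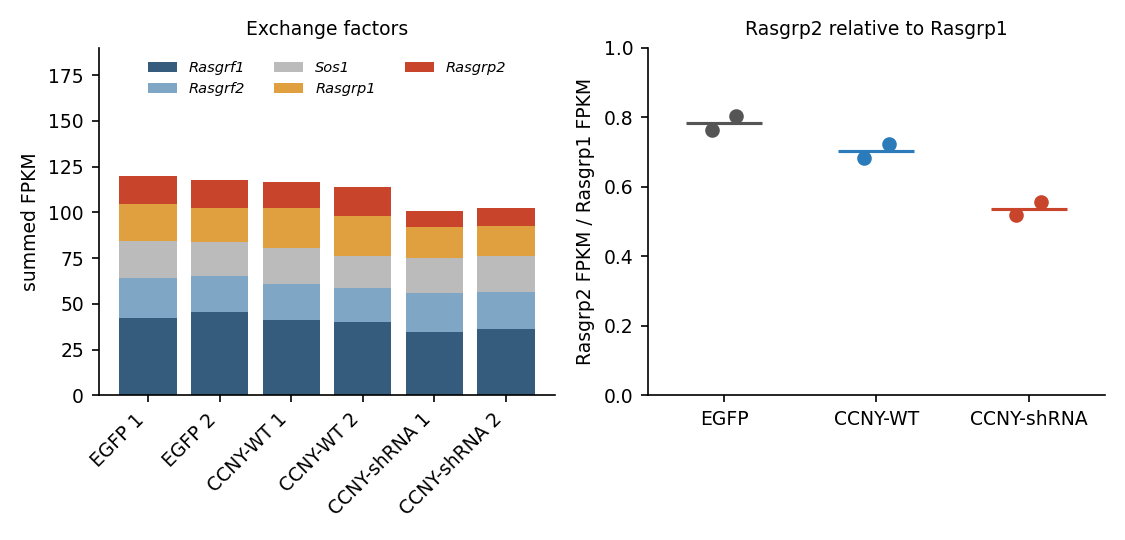
Left, FPKM of the 5 exchange factors above the filter stacked for each library (y axis from 0). Right, the ratio of Rasgrp2 to Rasgrp1 FPKM, with 2 libraries per group and a line at the mean, which is 0.782 for EGFP, 0.702 for CCNY-WT and 0.537 for CCNY-shRNA.

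The wider Ras and Rap pathway was covered by 13 lists with 100 genes in all, of which 87 were in the table and 81 were tested. Of the 81 genes, 0 passed limma's adjusted p of 0.05 in any of the 3 comparisons. In CCNY-shRNA against EGFP 14 had an unadjusted p under 0.05 (8 higher and 6 lower), in CCNY-WT against EGFP 8 (6 higher and 2 lower), and in CCNY-shRNA against CCNY-WT 4 (3 higher and 1 lower). These are 17.3%, 9.88% and 4.94% of the 81 genes, beside 18.6%, 6.83% and 12.2% of all genes tested. The median log2 difference of the 81 genes was 0.01, -0.01 and -0.01 in these comparisons.

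The lipid diacylglycerol, which recruits RasGRP proteins to membranes, is produced by phospholipase C and removed by diacylglycerol kinases. Of 10 diacylglycerol kinases listed, 7 were tested, and all 7 had negative log2 differences between CCNY-shRNA and EGFP, from -0.48 to -0.01 with a median of -0.07. Dgke had the lowest of these values, with 21.6 and 22.8 FPKM in EGFP, against 22.1 and 20.9 with CCNY-WT and 15.4 and 16.5 with CCNY-shRNA. Both CCNY-shRNA libraries lay below the 4 others, and the difference of -0.48 (standard error 0.0864) missed the threshold with a limma adjusted p of 0.0577. It passed narrowly with an offset of 0.1 in place of the floor or over genes with a mean of at least 5 FPKM (limma adjusted p = 0.0497 and 0.0396), and over all alternatives the adjusted p went up to 0.356. Dgki differed by -0.29 (limma adjusted p = 0.381). All 4 phospholipase C genes tested also had negative values, from -0.41 to -0.06, and 0 of them reached an unadjusted p under 0.05 in limma. In CCNY-WT against EGFP these 4 genes were negative too, from -0.12 to -0.01. Of the 7 diacylglycerol kinases 6 were also negative there, with a median of -0.05.

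Rap1, the main substrate of the Rasgrp2 protein, is encoded by Rap1a and Rap1b. The 5 Rap GTPase genes differed by -0.26 to 0.12 between CCNY-shRNA and EGFP, with 0 at an unadjusted p under 0.05 in limma. Between CCNY-WT and EGFP they differed by -0.53 to 0.18, and 2 had such a p. These were Rap1b, which was higher, and Rap2a, which was lower, where 6.83% of all genes tested had such a p. Neither passed the adjusted threshold. The 4 other exchange factors of Rap that were tested had negative values, from -0.31 to -0.03, with 1 at an unadjusted p under 0.05, and of 5 Rap GAPs 4 were negative and 2 had an unadjusted p under 0.05, where 18.6% of all genes tested did. In CCNY-WT, Rap2a had the lowest log2 difference of the list genes with a mean of at least 5 FPKM, from 11.3 and 7.74 FPKM in EGFP to 6.91 and 6.09 (-0.53, standard error 0.207, limma adjusted p = 0.725). The EGFP libraries of this gene lay far apart compared with the difference. Rasal1, a Ras GAP, came next with -0.17 (limma adjusted p = 0.761).

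The 6 Ras GTPase genes had a median log2 difference of 0.12 between CCNY-shRNA and EGFP. All 3 calmodulin genes, whose product binds the RasGRF proteins, had positive values in CCNY-shRNA. They were positive in CCNY-WT too, from 0.03 to 0.22. In CCNY-shRNA Calm3 differed by 0.31 (limma adjusted p = 0.0992). It had 1348 and 1268 FPKM in EGFP, against 1472 and 1566 with CCNY-WT and 1597 and 1639 with CCNY-shRNA. Among the feedback inhibitors of the pathway, Spry3 had 5.89 and 6.82 FPKM in EGFP, against 9.82 and 8.17 with CCNY-WT and 8.04 and 8.85 with CCNY-shRNA, and was higher than EGFP in all 4 libraries of the other groups. Its log2 differences were 0.50 in CCNY-WT (limma adjusted p = 0.725) and 0.41 in CCNY-shRNA (limma adjusted p = 0.198). Rps6ka1, an ERK-activated kinase, differed by 0.33 in CCNY-WT (limma adjusted p = 0.725).

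**Figure D4:**
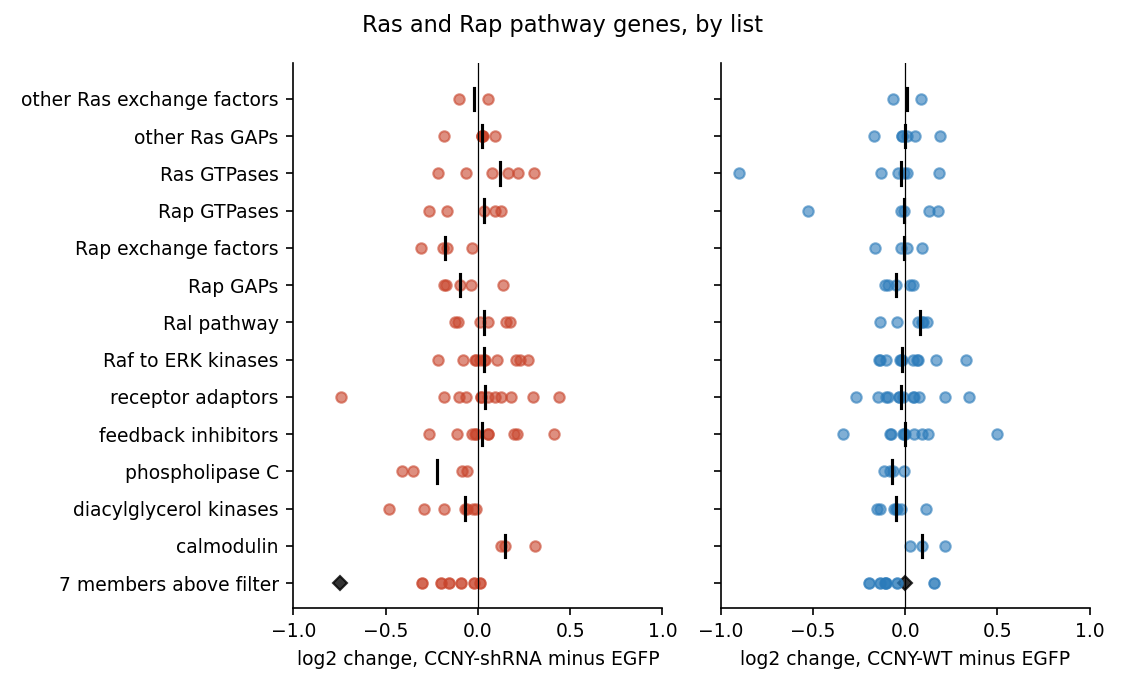
Log2 difference from EGFP (x axis, FPKM floored to 1) of each tested pathway gene, by list, for CCNY-shRNA on the left and CCNY-WT on the right, with a black line at the median of each list and the 7 regulators above the filter in the bottom row. Rasgrp2, the black diamond, lies at -0.75 in CCNY-shRNA, while the medians of the lists range from -0.22 to 0.15.

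The genes most like Rasgrp2 over the 6 libraries were found by the root mean square difference of the log2 FPKM, each gene taken relative to its own EGFP mean, among all genes tested. They were Azin1 (0.0533), Cd164 (0.0598), Doc2b (0.0914), Nacc2 (0.0952) and S1pr1 (0.0953). Azin1 had 119 and 117 FPKM in EGFP, against 121 and 122 with CCNY-WT and 72.4 and 75.2 with CCNY-shRNA, a log2 difference of -0.68 in CCNY-shRNA. The values of the other 4 genes in CCNY-shRNA ranged from -0.80 to -0.70, and in CCNY-WT from -0.13 to 0.05. These genes were picked for this likeness, so no test applies. Of the other regulators, Rasgrf1 ranked 436 and Rasgrp1 1157 by the same measure.

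**Figure D5:**
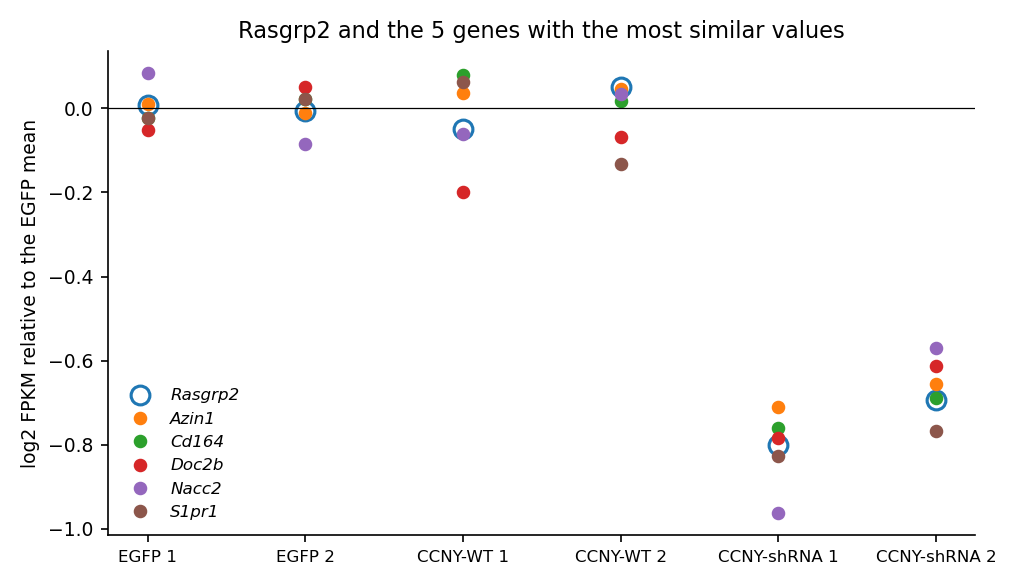
Log2 FPKM of Rasgrp2 (open circles) and of the 5 genes most like it in each of the 6 libraries, relative to the EGFP mean of each gene (y axis). The EGFP and CCNY-WT values lie near 0, and all 6 genes are lower in both CCNY-shRNA libraries, where Rasgrp2 had 8.72 and 9.39 FPKM.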

How the data were processed

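Per the labels, poly(A) RNA was made into libraries with a stranded kit and sequenced in 150-bp paired-end reads. The authors deposited FPKM values, 1 per gene and library. The submitters' processing notes name TopHat2 2.0, Bowtie2 2.1.0, SAMtools 0.1.19, Cufflinks 2.2.1, R 3.1.0 and the build rn4, while the annotation, the use of strand and any scaling between libraries are not given in the sources used here. As in the study, values under 1 FPKM were set to 1 before taking log2, which compresses changes of genes near 1 FPKM. Differences were fitted with limma 3.58.1 (R 4.3.3; lmFit, contrasts.fit, eBayes, trend = TRUE) on the 6 libraries together, covering 10188 genes that reached 1 FPKM in 2 or more libraries, with Benjamini-Hochberg adjustment over all of them. The fit was tested on simulated data. Of the 9 regulators, 7 passed the filter.

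The table holds no read counts. Relative depths were taken from the most frequent ratio of low FPKM values between each library and EGFP replicate 1. With these depths, the values of 98.4% of 772 weakly expressed genes fitted whole fragment numbers (tolerance 0.05, at most 30 fragments). Fragment numbers given are the smallest that fit. The regulators and the lists of genes were chosen with earlier results of these data known. Named are all regulators, Ccny, defining cell type markers, pathway genes past the threshold (there were 0), the 2 highest and 2 lowest changes per comparison with EGFP among pathway genes with a mean of at least 5 FPKM, and the 5 genes most like Rasgrp2. Promoter windows came from RefSeq and matched all 9 symbols. Tables were handled with Python 3.11.15 and pandas 2.3.3, and figures with matplotlib 3.10.9. Alternatives covered the offset, the filter, the scaling, the spread estimate, a replicate block and each library left out. Protein sequences and the raw reads were not analysed here, and 1 pathway gene is left unreported.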

Additional observations from a re-analysis of the deposited data

How the results depend on the processing

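Rasgrp2 kept its direction in CCNY-shRNA under all alternatives, with log2 differences of -0.80 to -0.69, and stayed between -0.05 and 0.05 in CCNY-WT. Under these same alternatives 0 of the 6 other regulators passed limma's adjusted p of 0.05, with the lowest value at 0.0664 for Rasgrf1. With 1 library left out, 1 to 2 regulators passed the fold threshold of 0.33 in CCNY-shRNA, counting the selected Rasgrp2. The sign of small differences turned in 11 cases, all with 1 library left out. In CCNY-shRNA against EGFP, Rasgrf2 then ranged from -0.118 to 0.0778 and Sos1 from -0.0460 to 0.0670, and in CCNY-WT against EGFP Sos1 ranged from -0.112 to 0.0211. Between CCNY-shRNA and CCNY-WT, Sos1 ranged from -0.0105 to 0.122, Rasa1 from -0.0204 to 0.0492 and Nf1 from -0.0580 to 0.137.

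The number of genes called over the whole table, which gives the background shares, moved far more than the members' values. In CCNY-shRNA against EGFP it was 76, against 2 with no filter, 144 over genes with a mean of at least 5 FPKM, 1 without the trend, 1 with the 2 compared groups only, and 1 to 7 with each library left out. In CCNY-WT against EGFP it was 3 with log2(FPKM + 1), 3 over genes with a mean of at least 5 FPKM and 0 to 1 with each library left out, where Ccny itself lost its call without EGFP replicate 2 or either CCNY-WT library. Between CCNY-shRNA and CCNY-WT it was 22, against 2 with no filter, 37 over genes with a mean of at least 5 FPKM, 1 without the trend, 1 with the 2 compared groups only and 1 to 8 with each library left out. The cause was not tested beyond the smaller number of libraries or genes that some of these settings use by construction. Of the pathway genes, 1 (Dgke) passed in CCNY-shRNA with log2(FPKM + 0.1) and over genes with a mean of at least 5 FPKM. Of 392 alternative values for the named genes and regulators other than Rasgrp2 and Ccny, 370 stayed on their side of the threshold with the same sign, and 9 lost their call, all of them for Gad2.

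With the replicate number as a block, 39 genes were called in CCNY-shRNA against EGFP, and the calls of the regulators and pathway genes did not change. Over genes, the difference of replicate 1 from replicate 2 correlated between groups at 0.0849, -0.0197 and 0.0809. These low values show no strong shared replicate effect. They cannot tell whether the numbers pair the libraries, since noise could hide a small shared effect. With 2 libraries per group and no read counts, small differences of genes near 1 FPKM could not be resolved.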
